A study of Mus musculus with 4 samples.

Results

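Villus-tip enterocytes of control mice were described from single-cell RNA counts of the small-intestinal epithelium. A cell was called a villus-tip cell when it held at least 2 summed counts over 5 genes (Ada, Slc28a2, Enpp3, Cybrd1 and Tmprss15) and fewer than 4 summed counts over 4 goblet cell genes (Muc2, Fcgbp, Clca1 and Spink4). The rule took 296 of 1289 kept control cells, 198 of 774 in control library 1 and 98 of 515 in control library 2, and the series holds 3304 kept cells in all. A kept cell had at least 1000 counts, at least 300 detected genes and at most 30% mitochondrially encoded counts. The rule uses measured values, so the levels of the 5 genes and the 4 goblet genes are described and not tested.

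The series compares the epithelium after loss of the Hippo pathway kinases LATS1 and LATS2 with control epithelium, in 2 Lats-deleted and 2 control libraries made by inDrop, in which a droplet gives each cell's RNA a barcode. Lats-deleted mice carried Lrig1-CreERT2 with Lats1fl/fl Lats2fl/fl, and control mice carried Lats1fl/fl Lats2fl/fl alone. The mice were adult and C57BL/6J, and all received 2 mg of tamoxifen intraperitoneally and were harvested 7 days later. CreERT2 is a recombinase that tamoxifen activates, here in cells that express Lrig1, and the cells were sorted as EpCAM+CD45-TER119-DAPI-, 5000 for each condition. Which stretch of the small intestine was taken and whether each library is 1 mouse are not given in the sources used here. Within controls, p-values rest on how far the difference between cell sets varied between the 2 libraries, pooled over genes. Between genotypes they rest on the spread between libraries of a group. Either spread may be technical.

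Enterocytes are born in the crypt, move up the villus and are shed from its tip, and they switch gene programs on the way. In mice, antimicrobial genes are known from the villus bottom, genes of sugar and amino acid uptake from the middle, and genes of lipoprotein assembly, purine breakdown and cell adhesion from the tip. Of the genes of the rule, Ada encodes adenosine deaminase, which turns adenosine into inosine. Slc28a2 encodes a sodium-driven purine nucleoside carrier and Enpp3 an ecto-enzyme that cleaves extracellular nucleotides. Cybrd1 encodes the duodenal ferric reductase, and Tmprss15 encodes enteropeptidase, the brush border protease that activates trypsinogen.

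The control files hold 2872497 and 2247269 counts. Median counts per cell were 1700.5 and 1813 in villus-tip cells of control libraries 1 and 2, against 1709 and 2103 in the other kept control cells. Median mitochondrially encoded shares were 12.5% and 11.1% in villus-tip cells, against 8.71% and 6.40% in the other cells. The control libraries share 4 barcodes among kept cells, and 2 of these barcodes belong to a villus-tip cell in at least 1 library. The values of control libraries 1 and 2 are given in this order throughout.

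The 5 genes of the rule were unequal in level. Ada (chromosome 2, 163726584 to 163750239 on GRCm38) stood at 2739.8 and 1710.3 CPM (counts scaled to an equal total in every summed set) in villus-tip cells, against 15.6 and 8.35 CPM in mid-villus cells. Mid-villus cells are the 343 and 247 other control cells with fewer than 4 goblet counts and at least 2 summed counts over 4 genes (Lct, Pck1, Slc5a1 and Slc2a2), and they are the nearest enterocytes to compare with. Cybrd1 (chromosome 2, 71117923 to 71142926) stood at 849.8 and 909 CPM in villus-tip cells and 5.69 and 8.35 CPM in mid-villus cells. The gap is what the rule selects, so these values carry no test. Enpp3 (chromosome 10, 24772406 to 24842823) stood at 784 and 520.1 CPM in villus-tip cells and 24.2 and 13.4 CPM in mid-villus cells. Tmprss15 (chromosome 16, 78953008 to 79091097) stood at 555 and 562 CPM in villus-tip cells and 49.8 and 35 CPM in mid-villus cells. Slc28a2 (chromosome 2, 122426477 to 122461137) stood at 358 and 295 CPM in villus-tip cells and had no count in mid-villus cells of either library, where 0 of 343 and 0 of 247 cells allow shares of up to 0.875% and 1.21% of cells with a count (counting error only).

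**Figure D1:**
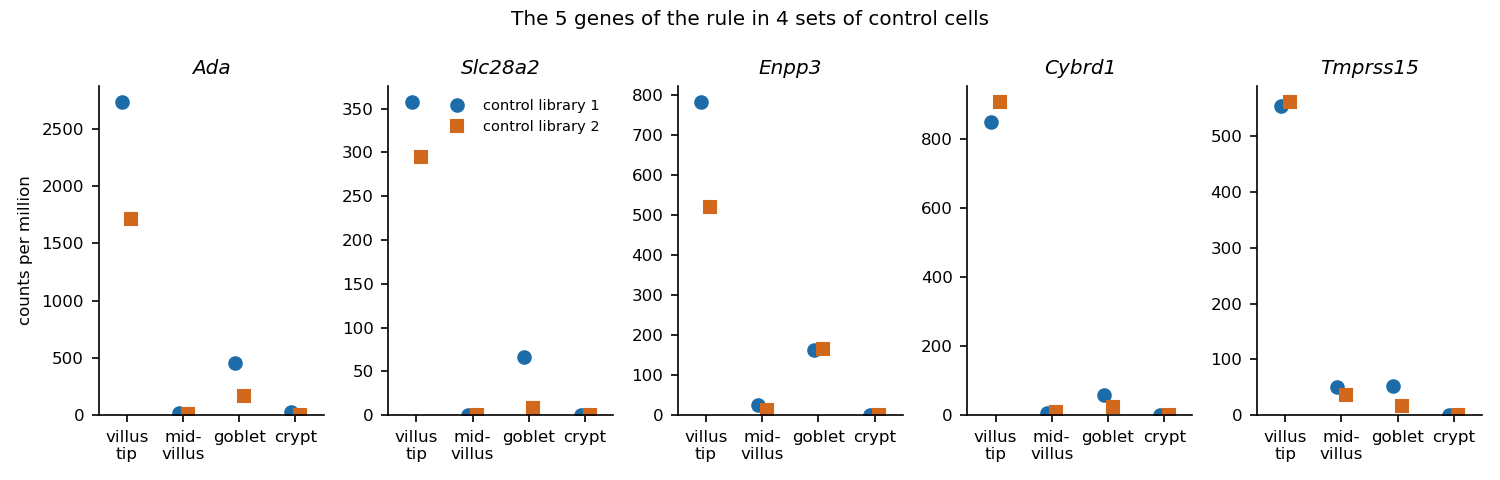
CPM of the 5 genes of the rule (one panel each, linear axis from 0) in villus-tip, mid-villus, goblet and crypt cells of the control libraries, one point per library. Villus-tip cells are highest by construction, and goblet cells come next for Ada, with 456 and 164 CPM. A single goblet cell held 47 of the 62 Ada counts of goblet cells in library 1 and 8 of 21 in library 2. Mid-villus and crypt cells are kept below 2 counts of the 5 genes by the rule, and goblet cells are not.

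The genes of the rule overlapped unevenly among villus-tip cells. A single gene of the 5 was detected in 38 and 17 villus-tip cells, 2 genes in 68 and 33, 3 in 44 and 25, 4 in 33 and 18, and all 5 in 15 and 5. Of the villus-tip cells with a count of Slc28a2, 45 of 47 and 26 of 26 also held Ada, while 36.9% and 41.9% of those with Ada held Slc28a2. The tenth of villus-tip cells richest in Ada held 63.5% and 58.1% of its counts, and the same share for Tmprss15 was 35.9% and 27.5%. The counts per cell were thus more uneven for Ada, although Ada was detected in 122 and 62 villus-tip cells and Tmprss15 in 118 and 63. With every cell thinned to 1000 counts, Ada was detected in 53.5 and 49% of villus-tip cells, against 2.04 and 1.21% of mid-villus cells. The unthinned shares were 61.6 and 63.3% and 3.21 and 2.02%. Crypt cells are other control cells with fewer than 4 goblet counts and fewer than 2 counts of the mid-villus genes. They also hold at least 2 counts over 6 stem and crypt genes, and the set was chosen after the values were seen. Being outside the rule, crypt and mid-villus cells hold fewer than 2 counts of the 5 genes by definition, and goblet cells have no such limit. The shares that follow are therefore a description and not a check of the rule. After thinning, a count of any of the 5 genes was present in 2 of 37 and 0 of 28 crypt cells, and in 43 of 343 and 16 of 247 mid-villus cells. Goblet cells with at least 4 goblet counts held such a count in 18 of 59 and 13 of 42 cells, and 7 and 10 of these goblet cells reached 2 counts and were kept out only by the goblet limit. Of the villus-tip cells, 28 and 16 held a goblet count, with at most 2 and 3 in a cell.

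The label was checked against markers that the rule does not use. All 8 tip genes outside the rule were higher in villus-tip than in mid-villus cells in both libraries. Mid-villus markers, 11 genes that include those defining mid-villus cells, summed to 3755 and 4377 CPM in villus-tip cells. The sums were 4468 and 4510 CPM in mid-villus cells and 3005 and 2891 CPM in all other control cells. At least 2 counts of the genes that define mid-villus cells were held by 133 of 198 and 77 of 98 villus-tip cells. Most villus-tip cells thus also carried mid-villus RNA. Paneth cell markers summed to 40.8 and 169 CPM over 6 genes in villus-tip cells, against 83.9 and 16.7 CPM in mid-villus cells and 3517 and 5508 CPM in all other control cells, so the villus-tip sum was below the mid-villus one in library 1 and above it in library 2. Of 2 Paneth genes tested against mid-villus cells, 1 was higher in villus-tip cells (Defa24, at 21 and 111 CPM in villus-tip cells and 32.7 and 6.59 CPM in mid-villus cells) and none by DESeq2. Enteroendocrine markers, 7 genes, summed to 34 and 42.2 CPM in villus-tip cells and 1138 and 974 CPM in the others, with Chga, Neurod1 and Cck at 0 in villus-tip cells of both libraries. The 8 goblet genes outside the rule summed to 206 and 431 CPM in villus-tip cells, against 158 and 229 CPM in mid-villus cells and 16614 and 27875 CPM in all other cells, with 7 of 8 genes detected in villus-tip cells of each library. Tuft markers, 6 genes with 5 detected in each library, summed to 36.3 and 216 CPM in villus-tip cells and 37 and 20.03 CPM in mid-villus cells, so library 2 was the higher one in villus-tip cells. Leukocyte markers, 7 genes with 5 detected in each library, summed to 107 and 103 CPM in villus-tip cells and 82.5 and 58.4 CPM in mid-villus cells. Stromal and erythroid markers stayed below 40 CPM in villus-tip cells. Ileal markers, 5 genes, summed to 181 and 169 CPM in villus-tip cells, 277 and 299 CPM in mid-villus cells and 212 and 215 CPM in all other cells. Fabp6, Slc10a2 and Fgf15 were at 0 in villus-tip cells of both libraries and in mid-villus cells of library 1, and the most abundant ileal gene was Slc51a, an organic solute transporter subunit, at 170.3 and 157 CPM in villus-tip cells and 255 and 274 CPM in mid-villus cells. Markers of the proximal small intestine, 6 genes all detected, summed to 3082 and 3359.8 CPM in villus-tip cells against 1956 and 1854 CPM in mid-villus cells. Of these 6 genes, 2 were higher and 0 lower in the test against mid-villus cells (median log2 fold change 0.33), also by DESeq2. The 2 genes were Slc40a1 and Slc46a1, whose values are given below. Ada, Cybrd1 and Tmprss15 are also known as duodenal genes in mice, so height on the villus and position along the gut cannot be told apart by the rule alone.

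Promoters of genes that rise together at the tip are shown because the AP-1 genes Fos, Jun and Junb were among them. AP-1 is the transcription factor dimer of Fos and Jun family proteins. The windows run from 250 bases before to 50 bases after each gene start (RefSeq, GRCm38.p6), 5′ to 3′ on the strand of the gene, and capitals mark AP-1 matches (TGANTCA, which is its own reverse complement). Cldn4 has the largest tip against mid-villus ratio of the genes named, Cybrd1 is the gene of the rule with a match, and Ada, the most abundant gene of the rule, has none.
Cldn4, chr5:134946885-134947184, minus strand: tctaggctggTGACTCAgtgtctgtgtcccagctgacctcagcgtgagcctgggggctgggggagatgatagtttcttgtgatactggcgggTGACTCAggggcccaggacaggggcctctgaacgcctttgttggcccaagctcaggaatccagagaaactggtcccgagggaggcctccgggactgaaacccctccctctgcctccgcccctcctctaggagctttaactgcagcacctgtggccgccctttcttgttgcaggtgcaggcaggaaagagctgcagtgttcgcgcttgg
Cybrd1, chr2:71117804-71118103, plus strand: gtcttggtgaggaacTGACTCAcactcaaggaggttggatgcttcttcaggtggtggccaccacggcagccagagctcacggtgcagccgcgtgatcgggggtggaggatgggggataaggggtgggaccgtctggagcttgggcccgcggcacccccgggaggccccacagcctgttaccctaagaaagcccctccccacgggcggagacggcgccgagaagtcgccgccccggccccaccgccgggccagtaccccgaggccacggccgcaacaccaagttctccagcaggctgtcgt
Ada, chr2:163750190-163750489, minus strand: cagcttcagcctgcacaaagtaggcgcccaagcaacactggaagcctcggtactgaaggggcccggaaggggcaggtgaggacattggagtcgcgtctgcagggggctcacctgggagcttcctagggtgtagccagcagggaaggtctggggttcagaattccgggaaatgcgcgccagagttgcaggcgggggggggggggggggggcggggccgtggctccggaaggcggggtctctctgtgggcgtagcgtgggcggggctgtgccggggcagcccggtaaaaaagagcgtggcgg
Matches to TGANTCA were present in 3 of the 20 genes with a promoter entry among 24 looked up (Cldn4 with 2, Cybrd1 and Ugt2b38 with 1 each), beside 7.93% of all 27025 promoters of this length. The KLF motif CACCC, searched on both strands, was present in 15 of the 20 genes and in 56.74% of all promoters, and the GATA motif AGATAA in 4 of the 20 and in 11.41%. One AP-1 match of Cldn4 overlaps a reverse-strand CACCC. These are matches of letters in a window and not measured binding sites.

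Villus-tip and mid-villus cells were compared to ask what sets the top of the villus apart from the enterocytes below it. Villus-tip cells had more RNA of the claudin gene Cldn4, the tubulin gene Tubb2a and the protease genes Ctse and Ctsl, all 8 tip genes outside the rule were higher, and all 9 villus bottom genes tested were lower. Counts were summed per library and cell set and tested with edgeR's quasi-likelihood test with the library as a block, leaving out the genes that define either set. Of 6023 genes tested, 1110 (18.4%) passed an adjusted p under 0.05, 525 (8.72%) higher and 585 (9.71%) lower in villus-tip cells. The fitted spread between the 2 library pairs was close to counting error (biological coefficient of variation 0.0991), and edgeR shared it fully across genes, so its p-values are very small. DESeq2 called 344 genes, 135 higher and 209 lower.

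Cldn4, the gene of the tight junction protein claudin-4 (chromosome 5, 134945119 to 134946934), was at 268 and 138 CPM in villus-tip cells, against 0 and 1.65 CPM in mid-villus cells. A single count stood behind the mid-villus values, so the difference is given as a ratio of 288 (95% counting interval 51 to 11468). Both villus-tip values lay far above both mid-villus values. Against all other control cells the gap of Cldn4 was smaller, with log2 fold changes of 3.52 in library 1 and 2.20 in library 2. Ctse (chromosome 1, 131638306 to 131675505), which encodes the aspartic protease cathepsin E, was at 226 and 73.7 CPM in villus-tip cells and 0 and 3.3 CPM in mid-villus cells, a ratio of 112 (95% counting interval 30.4 to 939) from 2 mid-villus counts. In all other control cells Ctse was at 20.5 and 8.81 CPM, a log2 fold change of 3.34 for villus-tip over these cells. Tubb2a (chromosome 13, 34074274 to 34078007), a beta-tubulin gene, was at 389.5 and 309 CPM in villus-tip cells and 5.69 and 4.94 CPM in mid-villus cells, a log2 fold change of 5.97 (SE 0.349, edgeR adjusted p = 1.4e-60). Tm4sf4 (chromosome 3, 57425314 to 57441677), a 4-span membrane protein gene, was the most abundant of these genes, at 1432 and 1059.99 CPM in villus-tip cells and 78.3 and 74.2 CPM in mid-villus cells, a log2 fold change of 4.03 (SE 0.184, edgeR adjusted p = 1.69e-98). The lack of overlap follows from the choice of these genes, which had to be higher in both libraries. Ctse, Ctsl and Tubb2a were detected in 27, 24 and 55 villus-tip cells of library 1 and 8, 8 and 19 of library 2. Their 3 richest cells held 27.8%, 30% and 28.1% of the counts in library 1 and 50%, 54.5% and 55.2% in library 2.

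The remaining large increases came from less abundant RNAs. Pmepa1, which encodes a membrane protein that restrains TGF-beta signalling, was at 138 and 92.2 CPM in villus-tip cells and 2.85 and 3.3 CPM in mid-villus cells, a log2 fold change of 5.14. Bmp8a, a BMP ligand, was at 51.3 and 59.9 CPM in villus-tip cells and 2.85 and 1.65 CPM in mid-villus cells, where 3 counts gave a ratio of 23.2 (95% counting interval 7.31 to 118). Clca4a, a member of the chloride channel regulator family, was at 203 and 92.2 CPM and 9.96 and 6.59 CPM in these sets (log2 fold change 4.13). Library 1 was the higher library for Ctse, Clca4a and Cldn4 in villus-tip cells, and the direction was the same in library 2. Rasgef1b, a guanine nucleotide exchange factor gene, rose by a log2 fold change of 3.55, the lysosomal protease gene Ctsl by 3.53 and the interferon-induced gene Oasl1 by 3.48. Of the 10 genes, 9 kept their call in every alternative that tested them (7 to 11 alternatives), and Oasl1 lost it when villus-tip cells were limited to those with 2 to 4 counts of the rule. An alternative that left a gene untested says nothing about it. Against all other cells, with the same 2 to 4 counts, Cldn4 was at -0.29 and Tubb2a and Rasgef1b lost their calls.

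**Figure D2:**
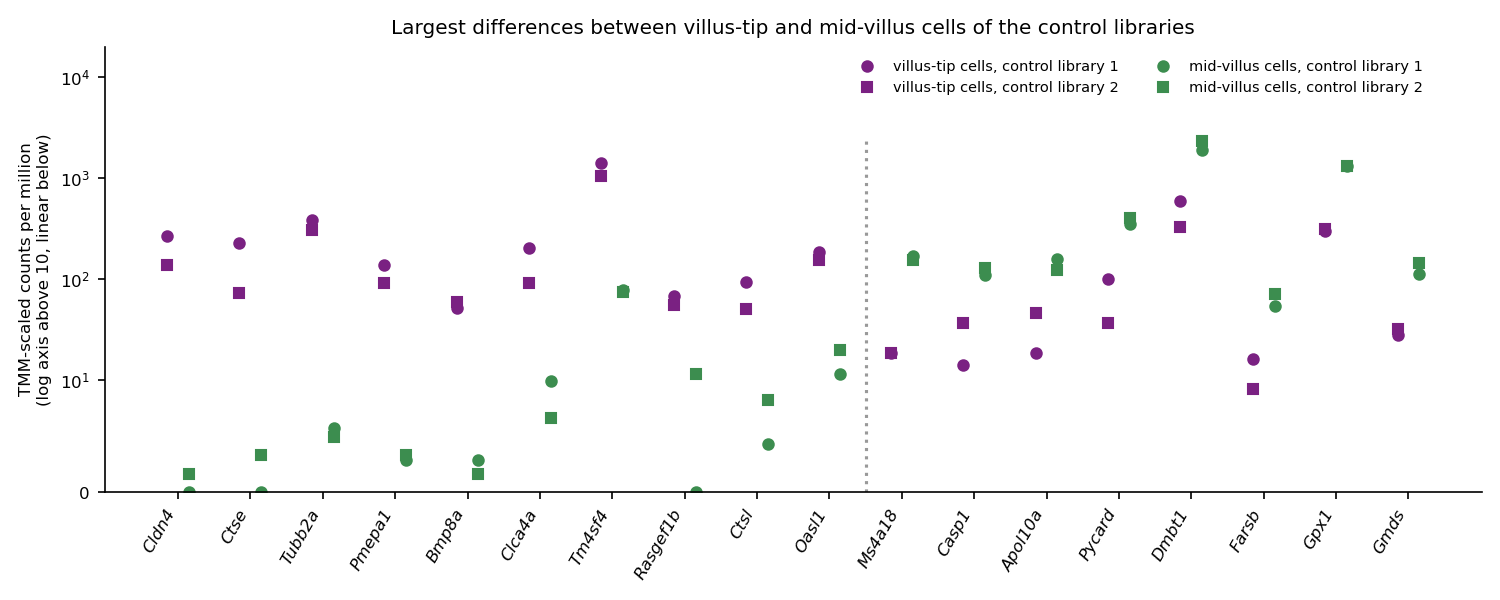
TMM-scaled CPM (log axis above 10, linear below) of the 10 largest increases (left of the dotted line) and 8 largest decreases (right) in villus-tip over mid-villus cells, with circles for control library 1 and squares for control library 2. The 18 genes were chosen as those that differ most in the same direction in both libraries, and Tm4sf4, Dmbt1 and Gpx1 are the most abundant of them.

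The 8 largest decreases were Ms4a18, Casp1, Apol10a, Pycard, Dmbt1, Farsb, Gpx1 and Gmds. Gpx1, glutathione peroxidase 1, was at 303 and 313 CPM in villus-tip cells and 1328 and 1322 CPM in mid-villus cells, a log2 fold change of -2.11 (SE 0.161, edgeR adjusted p = 6.7e-36). Dmbt1, a secreted scavenger receptor of mucosal surfaces, was at 597 and 327 CPM in villus-tip cells and 1889.7 and 2352 CPM in mid-villus cells, a log2 fold change of -2.15 (SE 0.149, edgeR adjusted p = 3.45e-43). Both genes were abundant in mid-villus cells and lower in villus-tip cells of both libraries. Pycard, the adaptor of inflammasomes, was at 100.3 and 36.9 CPM in villus-tip cells and 353 and 401 CPM in mid-villus cells (log2 fold change -2.29). Casp1, the inflammasome protease that matures interleukin-18, was at 14 and 36.9 CPM and 109.6 and 130.2 CPM in these sets (log2 fold change -2.39). Ms4a18, a membrane-spanning 4A family gene, fell by 3.11 on the log2 scale and Apol10a, an apolipoprotein L gene, fell by 2.32. Gmds, the first enzyme of GDP-fucose synthesis, fell by 2.06, and Farsb, a phenylalanyl-tRNA synthetase subunit, fell by 2.11. Apol10a and Farsb lost the call in cells with 2 to 4 counts of the rule, and Gmds lost it after thinning.

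Genes known from the villus tip that the rule does not use were higher in villus-tip cells. All 8 of 8 passed the test against mid-villus cells (median log2 fold change 2.00, beside 0.01 over all genes tested), and 4 of 8 passed with DESeq2. Krt20, the keratin of differentiated enterocytes, was at 2708 and 2212 CPM in villus-tip cells and 559 and 504 CPM in mid-villus cells, a log2 fold change of 2.21 (SE 0.139, edgeR adjusted p = 4.58e-52). Apoa4, the apolipoprotein of chylomicrons, was at 7949.6 and 6475 CPM in villus-tip cells and 1829.9 and 2387 CPM in mid-villus cells, a log2 fold change of 1.78 (SE 0.124, edgeR adjusted p = 4.86e-43). For both genes the libraries of a set lay close together and the sets did not overlap. Nt5e, which encodes CD73, the ecto-enzyme that makes adenosine from AMP, was at 93.3 and 41.5 CPM in villus-tip cells and 7.11 and 4.94 CPM in mid-villus cells (log2 fold change 3.44), and 3 cells held 88.9% of its counts in villus-tip cells of library 2. The list was drawn up with earlier results of these data known.

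Genes of the villus bottom were lower. All 9 tested of 12 listed passed the test, 0 higher and 9 lower (median log2 fold change -1.22), and 6 passed with DESeq2. Lypd8, a secreted protein that binds flagella of gut bacteria, was at 292 and 401 CPM in villus-tip cells and 1188 and 1624 CPM in mid-villus cells, a log2 fold change of -2.02 (SE 0.158, edgeR adjusted p = 1.79e-34). Il18, the inflammasome cytokine interleukin-18, was at 70.0 and 115 CPM in villus-tip cells and 255 and 351 CPM in mid-villus cells, a log2 fold change of -1.74 (SE 0.231, edgeR adjusted p = 2.35e-12). Villus-tip and mid-villus values of both genes were apart. Nlrp6, an inflammasome sensor, had a log2 fold change of -1.55. The chemokine gene Ccl25 fell by 1.22 on the log2 scale, Cps1, the carbamoyl phosphate synthetase of the urea cycle, fell by 0.94, and the C-type lectin gene Reg3b fell by 0.87.

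Fat absorption genes were split. Of 23 tested, 10 were higher and 2 lower in villus-tip than in mid-villus cells (median log2 fold change 0.22), with 8 higher and 2 lower by DESeq2. The secreted apolipoproteins were among those that rose. Apoc2, the cofactor of lipoprotein lipase, was at 2174 and 2157 CPM in villus-tip cells and 737 and 831 CPM in mid-villus cells, a log2 fold change of 1.47 (SE 0.135, edgeR adjusted p = 6.26e-25). Apoa1, the main protein of high-density lipoprotein, was at 10266 and 10816 CPM in villus-tip cells and 5680.5 and 6646 CPM in mid-villus cells, a log2 fold change of 0.78 (SE 0.117, edgeR adjusted p = 9.22e-10). Apob, the structural protein of chylomicrons, rose by 0.76, the fatty acid receptor gene Cd36 by 1.46 and the lipoprotein receptor gene Scarb1 by 1.21 on the log2 scale. The fatty acid binding protein gene Fabp1 fell by 0.93 and the acyl-CoA synthetase gene Acsl5 fell by 0.59. Mttp, which loads lipid onto apolipoprotein B, had a log2 fold change of -0.09 and Mogat2, which rebuilds diacylglycerol, one of -0.36, and neither passed.

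Of 9 iron and heme genes tested, 4 were higher and 1 lower (median log2 fold change 0.13), with 4 higher and 0 lower by DESeq2. Slc40a1, which encodes ferroportin, the iron exporter of the basolateral membrane, was at 1148 and 1175 CPM in villus-tip cells and 499 and 438 CPM in mid-villus cells, a log2 fold change of 1.304 (SE 0.147, edgeR adjusted p = 6.11e-17). Heph, the ferroxidase hephaestin that works with ferroportin, was at 294 and 327 CPM in villus-tip cells and 162 and 155 CPM in mid-villus cells (log2 fold change 0.95). Slc46a1, the proton-coupled folate transporter, was at 970.4 and 1074 CPM in villus-tip cells and 541 and 551 CPM in mid-villus cells (log2 fold change 0.90). These 3 genes were higher in villus-tip cells of each library. The ferritin light chain gene Ftl1 rose by 0.72, and Tfrc, the transferrin receptor, fell by 2.08 on the log2 scale. Slc11a2, the apical iron importer, had a log2 fold change of -0.02 and did not pass.

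Few purine genes outside the rule changed. Of 12 tested, 3 were higher and 1 lower (median log2 fold change 0.29), with 2 higher and 0 lower by DESeq2. Besides Nt5e, the guanine deaminase gene Gda was at 2307 and 2659 CPM in villus-tip cells and 1463 and 1498 CPM in mid-villus cells (log2 fold change 0.74). Xdh, xanthine dehydrogenase, which makes uric acid, was at 1619 and 1438 CPM in villus-tip cells and 1044 and 879 CPM in mid-villus cells (log2 fold change 0.67). The values of both sets were apart by less than for Nt5e, and both calls were lost after thinning and in cells with at least 10 counts of the rule. Adk, adenosine kinase, which returns adenosine to the nucleotide pool, fell by 1.37 on the log2 scale. Drug metabolism genes were also split, with 9 higher and 3 lower of 22 tested (median log2 fold change 0.20) and 3 higher and 2 lower by DESeq2. Cyp3a11, a cytochrome P450 of drug oxidation, was at 2335 and 1829.6 CPM in villus-tip cells and 724 and 773 CPM in mid-villus cells, a log2 fold change of 1.48 (SE 0.137, edgeR adjusted p = 1.14e-24). The related gene Cyp3a13 rose by 1.39 and the carboxylesterase gene Ces2c by 1.00, whereas the glutathione transferase genes Gsta1 and Gstm3 fell by 1.29 and 1.13. Members of the Cyp3a and Ces2 families are similar in sequence, and how reads shared among them were counted is not given in the sources used here.

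Brush border enzymes moved in both directions, with 4 higher and 3 lower of 15 tested (median log2 fold change 0.09) and 3 higher and 3 lower by DESeq2. Anpep, aminopeptidase N, was at 170.3 and 263 CPM in villus-tip cells and 649 and 888 CPM in mid-villus cells, a log2 fold change of -1.85 (SE 0.177, edgeR adjusted p = 4.18e-23). Both villus-tip values of Anpep lay below both mid-villus values. The trehalase gene Treh rose by 0.97 and the sucrase-isomaltase gene Sis fell by 1.12 on the log2 scale. Of 16 brush border structure and keratin genes, 6 were higher and 2 lower, with 5 and 1 by DESeq2. Cdhr2, a protocadherin that links microvillus tips, was at 1789 and 1387 CPM in villus-tip cells and 665 and 740.1 CPM in mid-villus cells (log2 fold change 1.18), and its partner Cdhr5 rose by 0.67. Krt19, a keratin that is abundant lower in the epithelium, was at 259 and 207 CPM in villus-tip cells and 704 and 724 CPM in mid-villus cells (log2 fold change -1.59). Keratins thus moved in opposite directions, Krt20 higher and Krt19 lower.

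Of 16 junction genes, 5 were higher and 2 lower (median log2 fold change 0.28), with 2 higher and 0 lower by DESeq2. Ceacam20, an adhesion receptor of microvilli, was at 138 and 161 CPM in villus-tip cells and 25.6 and 39.6 CPM in mid-villus cells, a log2 fold change of 2.22 (SE 0.309, edgeR adjusted p = 2.8e-11). Cldn2, the pore-forming claudin of the crypt, was at 2.33 and 13.8 CPM in villus-tip cells and 25.6 and 82.4 CPM in mid-villus cells, a log2 fold change of -2.80 (SE 0.62, edgeR adjusted p = 9.95e-05) from 4 counts in villus-tip cells. It was lower where Cldn4 was higher. Of 7 sugar genes tested outside those that define mid-villus cells, 0 were higher and 3 lower, with none called by DESeq2, and of 10 amino acid and peptide transport genes 1 was higher and 3 lower, with 0 and 2 by DESeq2. The neutral amino acid carrier gene Slc6a19 rose by 0.70, while the basolateral carrier genes Slc7a7, Slc7a8 and Slc43a2 fell by 1.16, 1.05 and 1.13 on the log2 scale. Calls of Slc6a19 and Slc7a7 were lost with DESeq2. Of 8 retinoid genes, 0 were higher and 4 lower, with 0 and 2 by DESeq2, among them Adh1, an alcohol dehydrogenase that oxidizes retinol, which fell by 0.75.

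**Figure D3:**
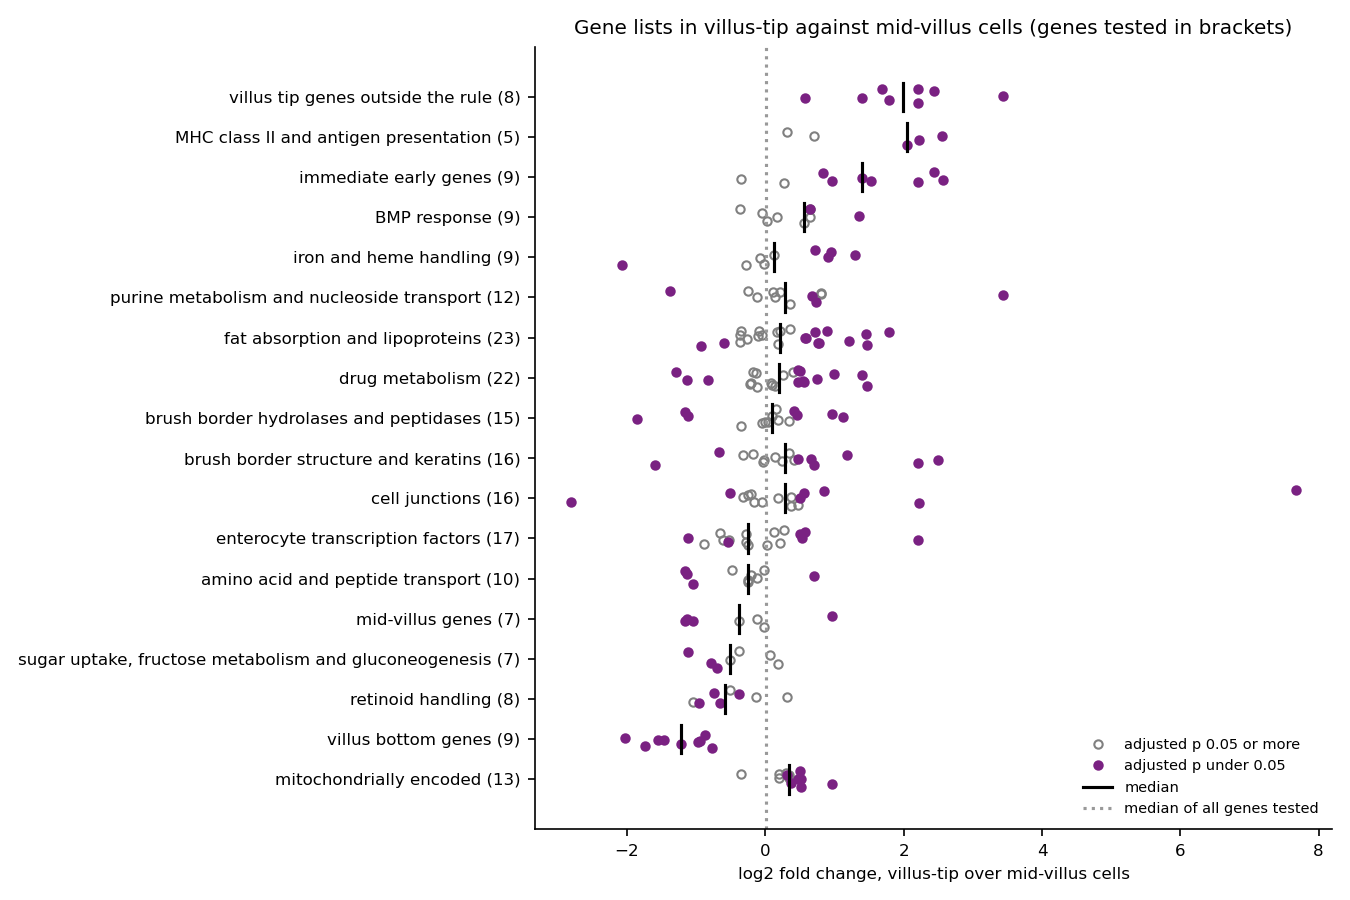
Log2 fold changes of villus-tip over mid-villus cells for the genes tested in 18 lists, one point per gene (filled where the adjusted p was under 0.05), with the list median as a bar and the median of all genes tested as a dotted line. Tip, MHC class II and immediate early genes lie mostly to the right, villus bottom genes lie to the left, and most other lists hold points on both sides.

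Of 5 MHC class II genes tested of 7 with a column, 3 were higher and 0 lower (median log2 fold change 2.05), also with DESeq2 and after thinning. H2-Aa, an MHC class II alpha chain, was at 758 and 595 CPM in villus-tip cells and 166 and 65.9 CPM in mid-villus cells, a log2 fold change of 2.55 (SE 0.184, edgeR adjusted p = 4.94e-40). Cd74, the invariant chain that escorts class II molecules, was at 620.5 and 521 CPM in villus-tip cells and 176 and 69.2 CPM in mid-villus cells, a log2 fold change of 2.22 (SE 0.187, edgeR adjusted p = 1.15e-29). For both genes library 1 was above library 2 within each set, and both villus-tip values lay above both mid-villus values. Cd74 and the class II genes are also known from leukocytes. The pan-leukocyte gene Ptprc was at 16.5 and 22.8 CPM in villus-tip cells and 20.5 and 17.6 CPM in all other cells (log2 fold change -0.03, not passed), and Coro1a was at 81.6 and 50.7 CPM in villus-tip cells and 25.6 and 33 CPM in mid-villus cells (log2 fold change 1.24, and -0.15 in cells with 2 to 4 counts of the rule). The part of leukocyte RNA in the class II values was not tested.

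Of 9 immediate early genes tested, 7 were higher and 0 lower (median log2 fold change 1.39), with 4 higher by DESeq2. The 3 lists of tip, immediate early and transcription factor genes share Klf4, and tip and immediate early genes also share Fos and Junb. Fos was at 198 and 179.7 CPM in villus-tip cells and 51.2 and 16.5 CPM in mid-villus cells, a log2 fold change of 2.44 (SE 0.29, edgeR adjusted p = 2.83e-15). Jun was at 159 and 152 CPM in villus-tip cells and 27 and 24.7 CPM in mid-villus cells, a log2 fold change of 2.57 (SE 0.317, edgeR adjusted p = 3.18e-14). Villus-tip values were above mid-villus values in both libraries, and both calls were lost in cells with 2 to 4 counts of the rule. These genes are also known to rise when tissue is dissociated, and the part of dissociation in the difference was not tested. Of 17 enterocyte transcription factor genes, 4 were higher and 2 lower, with 1 and 0 by DESeq2. Klf4, a zinc finger factor of differentiated epithelium, was at 366 and 323 CPM in villus-tip cells and 92.5 and 54.4 CPM in mid-villus cells (log2 fold change 2.21). Of the 6 called genes, DESeq2 called Klf4 alone. Creb3l3, an activator of lipoprotein genes, rose by 0.57, Vdr, the vitamin D receptor, by 0.50 and Hnf4a by 0.54, while Klf5, a factor of proliferating crypt cells, fell by 0.54 and the intestinal homeobox gene Cdx2 fell by 1.12. Of 9 BMP response genes, 2 were higher (median log2 fold change 0.56) and none by DESeq2. These were Id3, at 166 and 171 CPM in villus-tip cells and 115 and 97.2 CPM in mid-villus cells, and the inhibitory SMAD gene Smad7, at 51.3 and 59.9 CPM and 21.3 and 21.4 CPM in these sets, and the call of Id3 was lost in 10 alternatives. Of 11 cell death genes, 1 was higher and 2 lower (median log2 fold change -0.30), with 1 and 0 by DESeq2, beside 8.72% higher and 9.71% lower of all genes tested. Casp8, the initiator caspase of death receptors, rose by 1.32 on the log2 scale. Bcl2l15 was lower, with log2 fold changes of -3.10 in library 1 and -1.49 in library 2. The calls of Casp8 and Bcl2l15 were lost in cells with 2 to 4 counts of the rule.

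Mitochondrially encoded genes and ribosomal protein genes went opposite ways in villus-tip cells. Of 13 mitochondrially encoded genes, 7 were higher and 0 lower against mid-villus cells (median log2 fold change 0.35), with 5 higher by DESeq2. Among them mt-Co1, a cytochrome oxidase subunit, was at 24245 and 20859 CPM in villus-tip cells and 13636 and 9716 CPM in mid-villus cells. Cytosolic ribosomal protein genes, a list chosen after the values were seen, took 2.62% and 2.27% of counts in villus-tip cells, against 6.95% and 6.80% in mid-villus cells. Of 81 tested, 80 were lower and 0 higher, with 77 lower by DESeq2. A high mitochondrially encoded share is also a sign of damaged cells, and its part in the differences was not tested. With cells limited to at most 15% mitochondrially encoded counts, 746 genes passed against mid-villus cells, and each of the 10 largest increases and 8 largest decreases kept its call.

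Against all other kept control cells, which include crypt, goblet, Paneth and enteroendocrine cells, 1561 of 7645 genes tested (20.4%) passed, 731 (9.56%) higher and 830 (10.9%) lower in villus-tip cells, and DESeq2 called 467. Clca4a, Bmp8a, Tubb2a, Rasgef1b, Ctsl, Pmepa1 and Ctse were again among the 10 largest increases. Tubb2a was at 393 and 305 CPM in villus-tip cells and 20.5 and 12.7 CPM in all other cells, a log2 fold change of 4.37 (SE 0.262, edgeR adjusted p = 1.09e-58). The other 3 were Pmaip1, Ugt2b38 and Tmem229b. Pmaip1, the gene of the pro-apoptotic protein Noxa, was at 285 and 182 CPM in villus-tip cells and 40.2 and 17.6 CPM in all other cells, a log2 fold change of 3.01 (SE 0.269, edgeR adjusted p = 4.82e-27). Ugt2b38, a glucuronosyltransferase gene, was at 257 and 146 CPM in villus-tip cells and 29.1 and 16.6 CPM in all other cells (log2 fold change 3.13). Tmem229b rose by 3.13 on the log2 scale. Calls of Tubb2a, Rasgef1b and Tmem229b were lost in cells with 2 to 4 counts of the rule.

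The 8 largest decreases against all other cells were genes of secretory cells. The Paneth cell genes Defa25 and Mmp7 and the goblet gene Lrrc26 had no count in villus-tip cells and were at least 31.5-fold, 11.4-fold and 11.6-fold lower, with the floor of 3 counts taken over both libraries. Agr2, a chaperone of mucin folding, was at 2.36 and 4.56 CPM in villus-tip cells and 378 and 361 CPM in all other cells. The others were the somatostatin gene Sst, the antimicrobial phospholipase gene Pla2g2a and the alpha-defensin genes Defa23 and Defa-rs7. In the other cells, 3 cells per library held at least 90.0% of the counts of Defa25, Mmp7, Sst, Pla2g2a, Defa23 and Defa-rs7, so few cells stand behind these decreases, and alpha-defensin genes are near-identical copies. Lct and Pck1 changed direction with the limit of the rule. Lct, the lactase gene, was at 565 and 688 CPM in villus-tip cells and 398 and 458 CPM in all other cells, a log2 fold change of 0.54, and in cells with at least 10 counts of the rule the log2 fold change was -1.22. Pck1, which encodes the cytosolic enzyme of gluconeogenesis, had log2 fold changes of 1.08 and -1.95 in the same comparisons, and DESeq2 called neither gene at the limit of 2 counts. Secretory markers outside the rule were lower in villus-tip cells for 7 of 8 goblet, 6 of 6 Paneth and 4 of 4 enteroendocrine genes tested (3, 5 and 3 by DESeq2), and 0 of 5 tuft genes passed. The rule itself keeps goblet cells out of the villus-tip set, and with goblet cells left out of the other cells as well, the log2 fold changes of Zg16, Tff3 and Defa24 were 0.66, 0.60 and 1.47. Stem cell genes, 4 tested, were lower for 2 and higher for 0, and cell division genes, 11 tested, were lower for 5 and higher for 0, with 0 and 1 lower by DESeq2. Of the stem genes, Slc12a2, a chloride importer of crypt cells, was at 63.6 and 9.12 CPM in villus-tip cells and 109.6 and 143 CPM in all other cells. Against mid-villus cells, 0 of 1 stem cell gene and 0 of 5 cell division genes tested passed. Stem cell markers summed to 101.98 and 37.49 CPM in villus-tip cells and 49.79 and 35.05 CPM in mid-villus cells. Cell division markers summed to 537.1 and 566.99 CPM in villus-tip cells and 429.6 and 547.4 CPM in mid-villus cells. Neither sum was lower in villus-tip than in mid-villus cells of either library.

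The lists were also counted against all other cells. Tip genes outside the rule were higher for 7 and lower for 0 of 8 tested (median log2 fold change 1.97, beside -0.02 over all genes tested), and villus bottom genes lower for 7 and higher for 0 of 9. Fat absorption genes were higher for 16 and lower for 1 of 23 (median 0.67), drug metabolism genes higher for 14 and lower for 2 of 22, and brush border enzymes higher for 10 and lower for 3 of 17. MHC class II genes were higher for 3 and lower for 0 of 5 (median 2.54) and immediate early genes higher for 7 and lower for 0 of 9. By DESeq2 the tip genes were higher for 7, fat absorption genes for 11, drug metabolism genes for 9, brush border enzymes for 7, MHC class II genes for 3 and immediate early genes for 6, and villus bottom genes were lower for 5. Gda, which rose little against mid-villus cells, was at 2329 and 2631 CPM in villus-tip cells and 1033 and 939.7 CPM in all other cells, a log2 fold change of 1.32 (SE 0.124, edgeR adjusted p = 8.5e-25). Alpi, intestinal alkaline phosphatase, was at 7109.97 and 5941 CPM in villus-tip cells and 3448 and 3215 CPM in all other cells, a log2 fold change of 0.97 (SE 0.109, edgeR adjusted p = 3.59e-17). Both were higher in villus-tip cells of each library.

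Villus-tip cells were not uniform, and the genes above sorted by how many counts of the rule a cell held. Bins of the summed count were chosen after the values were seen, the counts are those of the rule, and the values that follow are a description with no test, in CPM of the plain total of the summed counts. Members just inside the limit, with 2 counts (51 and 24 cells), had Krt20 at 913 and 931 CPM and Lypd8 at 609 and 741 CPM. Cells just outside it, with 1 count (84 and 48 cells), had Krt20 at 691 and 545 CPM and Lypd8 at 746 and 1201 CPM. Krt20 was higher and Lypd8 lower just inside the limit in both libraries, by less than 2-fold. Tubb2a was at 21 and 0 CPM in cells with 2 counts, 65 and 16.5 CPM with 3 to 4, 156 and 188 CPM with 5 to 9 and 958 and 1006 CPM with 10 or more. Cldn4 was at 10.5 and 38 CPM with 2 counts, 32.5 and 0 CPM with 3 to 4, 70.9 and 118 CPM with 5 to 9 and 689 and 399 CPM with 10 or more. Both genes were highest in cells with 10 or more counts and low in cells with fewer than 5. Krt20 was at 1227 and 1022 CPM with 3 to 4 counts, 2241 and 2213 CPM with 5 to 9 and 5018 and 4769.8 CPM with 10 or more, and Apoa4 was at 3359 and 4712 CPM with 2 counts and 13526 and 10077 CPM with 10 or more. These rose over the whole range.

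Other genes reached their level early or fell again. Apoa1 was at 3899 and 4399.7 CPM in cells with no count, 9122 and 11534 CPM with 2 counts and 11177 and 9921 CPM with 10 or more, so it was high in every bin of villus-tip cells. Lct was at 391 and 464 CPM with no count, 997 and 1349 CPM with 2 counts and 216 and 139 CPM with 10 or more, and was highest in the bin with 2 counts in both libraries. Anpep was at 346 and 589 CPM with 2 counts and 39.4 and 0 CPM with 10 or more. Lypd8 was at 45.9 and 104 CPM with 10 or more counts and Gpx1 at 535 and 380.04 CPM with 2 counts and 72.2 and 121 CPM with 10 or more. The share of cells with at least 2 counts of the mid-villus genes was 84.3% and 95.8% with 2 counts of the rule and 39.7% and 43.5% with 10 or more. The ribosomal protein share was 3.76% and 2.48% with 2 counts and 0.992% and 1.44% with 10 or more, and the median mitochondrially encoded share was 13.8% and 7.91% with 2 counts and 12.5% and 13.9% with 10 or more. Median counts per cell were 1516 and 1948 with 2 counts and 1954 and 1813 with 10 or more.

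Ada split the villus-tip cells in the same way. As the most abundant gene of the rule it adds to the summed count, so this split overlaps the bins above and is a description with no test. Tubb2a was at 577 and 511 CPM in the 122 and 62 villus-tip cells with Ada, against 25.2 and 11.9 CPM in the 76 and 36 without it. Ctse was at 333 and 124 CPM in villus-tip cells with Ada and 18.9 and 0 CPM in those without, and Fos at 269 and 279 CPM with Ada and 56.6 and 35.6 CPM without. Lct ran the other way, at 389.7 and 349 CPM in villus-tip cells with Ada and 818 and 1257 CPM in those without. H2-Aa was at 939 and 635 CPM with Ada and 377 and 557 CPM without, both above the 166 and 66.8 CPM of mid-villus cells.

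**Figure D4:**
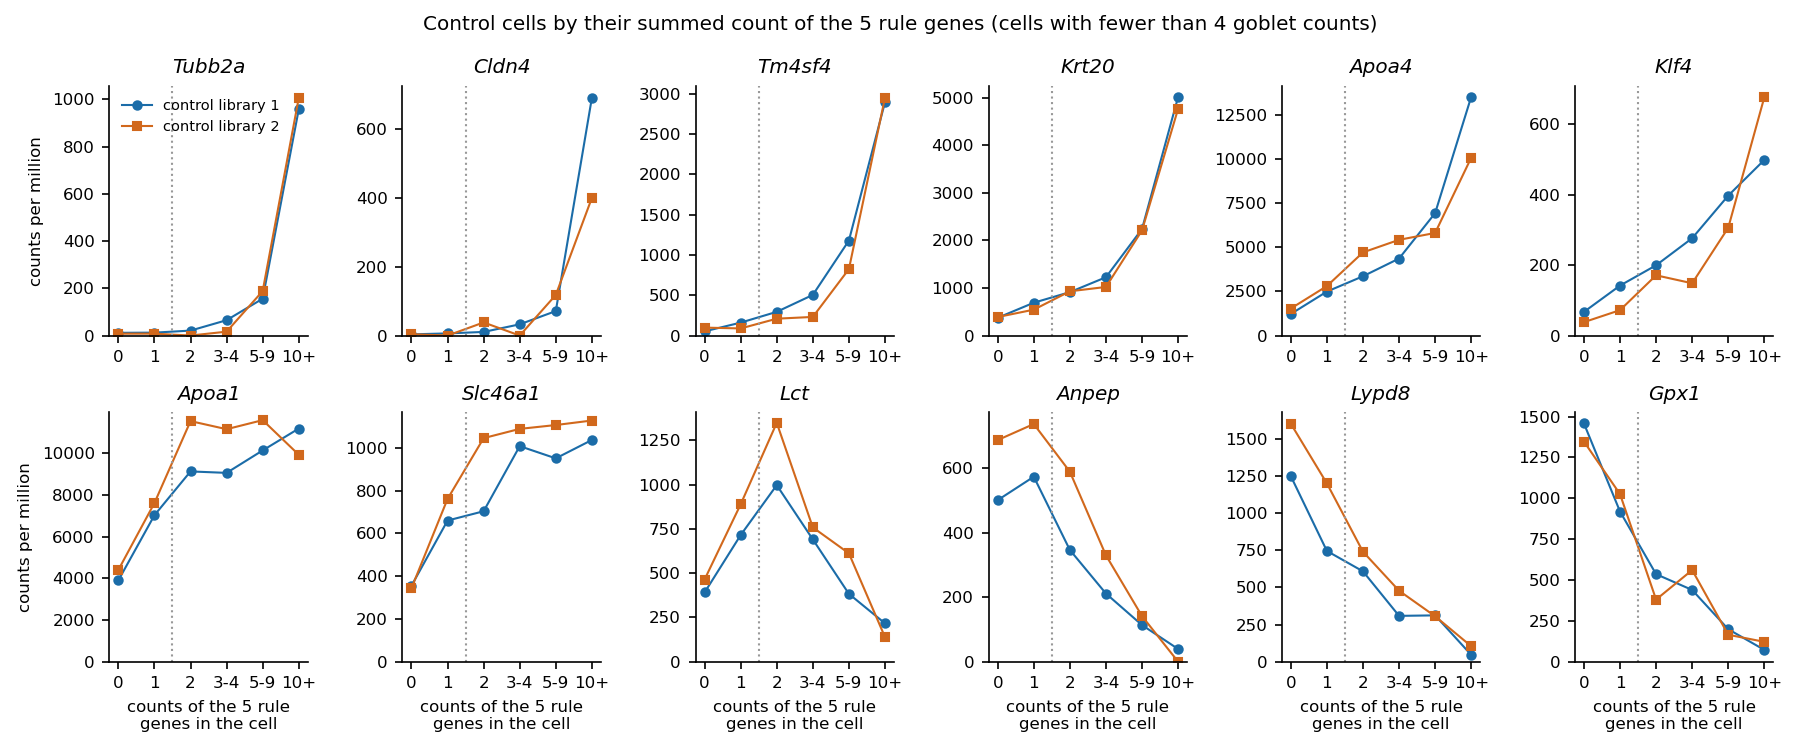
CPM of 12 genes (one panel each, linear axis from 0) in control cells with fewer than 4 goblet counts, grouped by the summed count of the 5 genes of the rule from 0 to 10 or more, one line per control library, with the limit of the rule dotted. Tubb2a and Cldn4 climb at 5 counts and above, Krt20 and Apoa4 climb over the whole range, Apoa1 and Slc46a1 level off, Lct peaks at 2 counts, and Anpep, Lypd8 and Gpx1 are lowest at 10 or more counts.

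The same rule was applied to the Lats-deleted libraries to ask whether villus-tip cells were found there. It took 35 of 726 kept cells (4.82%, exact 95% interval 3.38 to 6.64%) and 39 of 1289 (3.03%, 2.16 to 4.11%) in the Lats-deleted libraries, against 198 of 774 (25.6%, 22.5 to 28.8%) and 98 of 515 (19.0%, 15.7 to 22.7%) in the control libraries. The difference of the means was -18.4 percentage points (Lats-deleted minus control), with the groups apart. The share is built from the genes of the rule and is given as a description. The two-sided exact permutation p of 0.33 is the smallest that 2 libraries against 2 allow, so it could not have passed 0.05. After thinning to 1000 counts the shares were 1.93% and 0.310% in Lats-deleted and 17.2% and 13.6% in control libraries. Lats-deleted cells were deeper, with median counts of 3582 and 6267 in rule-passing cells, against 1700.5 and 1813 in control ones, and the rule asks for a fixed number of counts at any depth. A limit of 3 counts left 18 of 35 and 14 of 39 Lats-deleted cells, against 147 of 198 and 74 of 98 control cells. Only 6 and 3 of the Lats-deleted rule-passing cells held at least 2 counts of the mid-villus genes, against 133 and 77 of the control ones.

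Rule-passing cells of the Lats-deleted libraries had less RNA of most fat absorption and brush border genes, and more RNA of Clu and Ly6a, which are known from regenerating epithelium. Of 4125 genes tested, 1716 (41.6%) passed, 921 (22.3%) higher and 795 (19.3%) lower in Lats-deleted cells, and DESeq2 called 951. Without Lats-deleted library 1 none passed with edgeR (2042 had an unadjusted p under 0.05), without Lats-deleted library 2 there were 1522 calls, and without control library 1 or 2 there were 1022 or 1105. Clu, the gene of the secreted chaperone clusterin, was at 4109 and 5354 CPM in Lats-deleted and 2.41 and 0 CPM in control rule-passing cells, a ratio of 3334 (95% counting interval 598 to 131737). In Lats-deleted rule-passing cells Ly6a, which encodes the surface protein Sca-1, stood at 2443 and 1570.03 CPM, with 0 CPM in both control libraries, at least 453-fold higher. Both groups were apart for these genes, and the other large increases were Wfdc2, Mal, Anxa5 and Nupr1, each with no count in control rule-passing cells. Apoa4 was at 1381 and 226 CPM in Lats-deleted and 7723 and 6584 CPM in control rule-passing cells, a log2 fold change of -3.33 (SE 0.667, edgeR adjusted p = 0.00263). Krt20 was at 2451 and 1924 CPM in Lats-deleted and 2631 and 2249 CPM in control rule-passing cells, with a log2 fold change of -0.33 (SE 0.33, edgeR adjusted p = 0.461) that did not pass. The groups were apart for Apoa4 and overlapped for Krt20, tip genes chosen after the values were seen.

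The tip gene Cldn4 was higher in the Lats-deleted cells, at 669.8 and 816 CPM against 261 and 141 CPM in control cells, and Tubb2a was lower, at 145 and 111 CPM against 378 and 314 CPM. Of the 8 tip genes outside the rule, 1 was higher (Egfr) and 3 were lower (Apoa4, Klf4 and Creb3l3) in Lats-deleted cells, with 0 and 2 by DESeq2. Of 23 fat absorption genes, 1 was higher and 20 lower, and of 16 brush border enzymes 0 were higher and 14 lower. Median mitochondrially encoded shares were 4.31% and 3.31% in Lats-deleted and 12.5% and 11.1% in control rule-passing cells, with 12 of 12 mitochondrially encoded genes lower, and 77 of 81 ribosomal protein genes were higher. The part of these shares in the differences was not tested. The largest decreases were the glucuronosyltransferase genes Ugt2b5 and Ugt2a3 and the proton channel gene Otop3, with no count in Lats-deleted cells and at least 26.2-fold, 22.9-fold and 24-fold lower, followed by the carboxylesterase genes Ces1g and Ces1f and the amino acid carrier gene Slc6a20a. In bulk sums like these, other cells that pass the rule at a low count and a change within villus-tip cells cannot be told apart. Stromal markers, 6 genes, summed to 1371 and 263 CPM in Lats-deleted and 38.5 and 37.5 CPM in control rule-passing cells, and the part of such RNA in the differences was not tested. The RNA Xist was at 426 and 299 CPM in Lats-deleted and 6.80 and 4.69 CPM in control rule-passing cells, so the sex of the mice and the genotype cannot be told apart in this comparison.

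**Figure D5:**
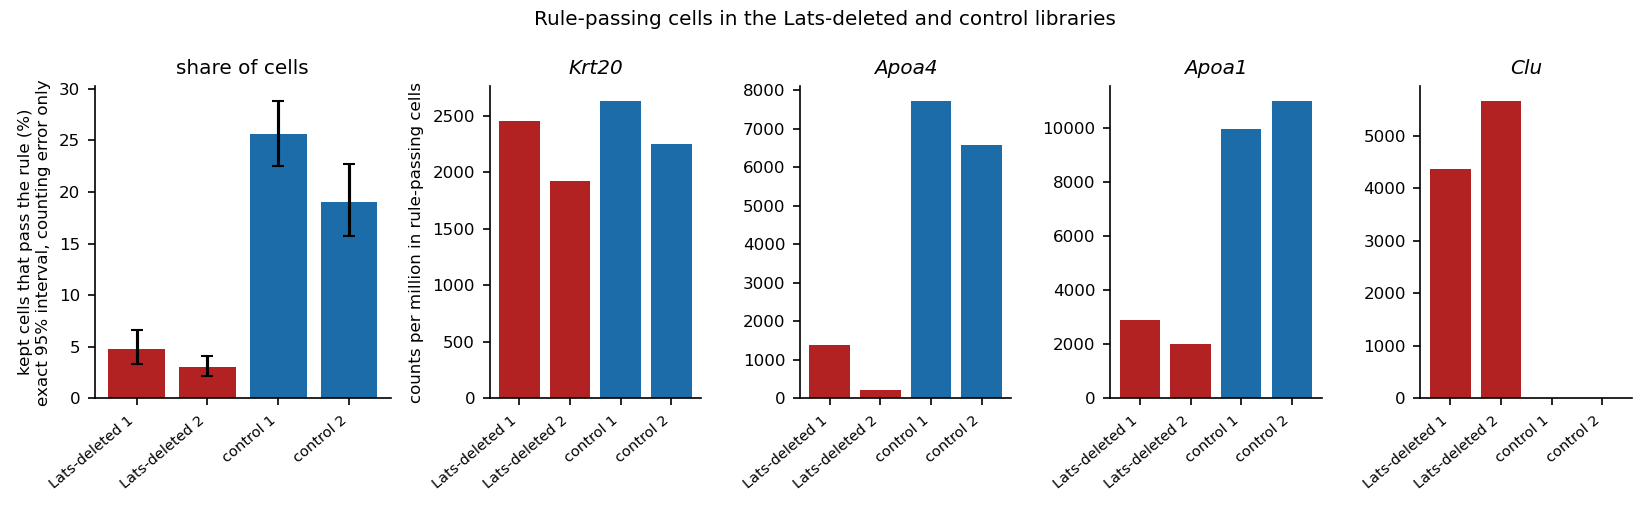
Share of kept cells that pass the rule (first panel, bars with exact 95% intervals for counting error) and CPM of 4 genes over plain totals in these cells (other panels), for Lats-deleted libraries 1 and 2 and control libraries 1 and 2. The share, Apoa4 and Apoa1 are lower and Clu is higher in both Lats-deleted libraries, and Krt20 overlaps between the groups.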

How the data were processed

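Each library has 1 deposited file of counts, cells in rows and gene symbols in columns per the file headers, and every value was a whole number, taken as not normalized by the authors. The submitters' processing notes name mm10 with Bowtie 1.1.1.1, RSEM 1.3.0 and SAMtools 1.3.1, without their roles. Whether counts are of molecular identifiers, and the strand setting, are not given in the sources used here, so intervals cover counting error only. Of 25289 gene columns, 24560 match GENCODE M21 (GRCm38).

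Counts were summed per library and cell set and tested with edgeR 4.0.16 (filterByExpr, TMM, quasi-likelihood test, R 4.3.3), with the library as a block within controls, since both sets come from the same library, and Benjamini-Hochberg adjustment over all genes tested. CPM of named genes use TMM-scaled totals, and CPM of bins, marker sums, genes of the rule and tip genes of both genotypes use plain totals. DESeq2 1.42.0, other scaling, filters, limits and thinning to 1000 counts (seed 1) were alternatives. A gene at 0 in a set has a bound against 3 counts over its libraries. Counts were also simulated with the common spread that edgeR had fitted given to every gene. There edgeR recovered 43% and 87% of genes changed by 1 and 2 log2 units against mid-villus cells, with 2 false calls. The shares were 28% and 78% against all other cells and 11% and 69% between genotypes. The simulation leaves out spread that differs between genes and counts held by few cells, so it does not measure false calls in the data. Doublets were not removed beyond the goblet limit. The rule for named genes took, among genes called with an adjusted p under 0.05, with the same direction in both libraries and 50 CPM or more in the higher set of each, the 10 that rose most and the 8 that fell most (6 and 6 between genotypes; Gm and Rik models left out), plus as many as 4 genes per list by smallest p against all other cells. Further list members, and tip genes in the Lats-deleted cells, were named after their values were seen. The members, the 30 lists and the tests were chosen with earlier results of these data known. Values of some list members are not reported here.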

Additional observations from a re-analysis of the deposited data

How the results depend on the processing

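Against mid-villus cells, 1110 genes passed, and the count was 344 with DESeq2, 504 after thinning to 1000 counts, 676 with no filter on low counts and 247 in villus-tip cells with 2 to 4 counts of the rule (the last chosen after seeing the data). Against all other cells it was 1561, and 467, 823 and 395 with DESeq2, after thinning and with 2 to 4 counts. Scaling by RLE or library totals, limits of 3 or 10 counts, 2000 counts per cell and 15% mitochondrially encoded counts kept both counts within 1.5 times. Without the library block, 830 genes passed against mid-villus cells and 1362 against all other cells. Between genotypes, 1716 genes passed, 951 with DESeq2 and 0 to 1522 when 1 library was left out. With the replicate number as a block, added after seeing the data, 1688 passed. The 2 same-numbered libraries deviated with a correlation of -0.0121 across genes. A single correlation cannot decide whether same-numbered libraries share a batch. Leaving out 1 library moved the share difference between -21.7 and -15.1 percentage points. The thinned fit between genotypes was not run, since Lats-deleted libraries then hold 14 and 4 cells.

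Directions turned in 12 values of single genes that were called in the main or the altered fit. With at least 10 counts of the rule, Pck1, Lct and Slc5a1 were at -1.95, -1.22 and -0.40 against all other cells. With 2 to 4 counts, Adh1 and Cldn4 were at 0.0176 and -0.29 against all other cells and Coro1a at -0.15 against mid-villus cells. Without goblet cells among the other cells, Zg16, Tff3 and Defa24 were at 0.66, 0.60 and 1.47. Against mid-villus cells, Zg16 was at -0.0640 with 2000 counts per cell and -0.0706 with at most 15% mitochondrially encoded counts, and Defa24 at -0.63 without control library 2 and 3.93 without control library 1, with no test since 1 pair of sets then remains. The cause was not tested. The other values of named genes called in either fit kept their direction. Genes without a call were not counted here and could also turn. Rdh7 against all other cells was at -0.92 in library 1 and 0.14 in library 2. With 296 cells at a median of 1700.5 and 1813 counts, RNAs of a few CPM rest on few counts.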

Other observations

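Goblet markers were compared between villus-tip and mid-villus cells as a measure of RNA from other cells. Zg16, a lectin of goblet granules, was at 135 and 286 CPM in villus-tip cells and 95.3 and 145 CPM in mid-villus cells, a log2 fold change of 0.75 (SE 0.227, edgeR adjusted p = 0.00832), and 3 cells held 72.6% of its counts in villus-tip cells of library 2. The call was lost with DESeq2. Tff3, a trefoil peptide of mucus, was at 14 and 55.3 CPM in villus-tip cells and 9.96 and 23.1 CPM in mid-villus cells and did not pass. Mid-villus cells held enteroendocrine RNA from few cells, since 3 cells of library 1 held 99.8% of the counts of Gip, the incretin gene, which was at 9.33 and 13.8 CPM in villus-tip cells and 622 and 23.1 CPM in mid-villus cells.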
